A study of Homo sapiens with 14 samples.

Results

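The regions described here are places in HS-SY-II cells where GLTSCR1 was found at the end of a gene while the SS18::SSX fusion was not. They were chosen by the DMSO peak lists: a GLTSCR1 region of at most 5000 bp, lying within 1 kb of either end of a protein-coding gene, that overlapped no fusion region of the same DMSO condition. This rule found 3838 of the 18037 GLTSCR1 regions (21.3%). They are called fusion-free gene-end regions below. Absence of the fusion means absence from the authors' DMSO fusion list, not absence of the protein.

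HS-SY-II is an established synovial sarcoma line with genotype label WT, and chromatin immunoprecipitation with sequencing (ChIP-seq) was done with a GLTSCR1 antibody or with anti-HA, which recognises the HA-tagged fusion. Cells received DMSO or 100 nM WA-68, a PROTAC that directs BRD9 to degradation. Later samples were taken at 12, 24, 48 and 96 h for GLTSCR1. For the fusion they were taken at 12, 24 and 48 h. Each condition is 1 library of 1 cell line, so there is no replicate error and no test between conditions, and the intervals below cover counting error only. How long the DMSO cells were cultured is not in the labels, and all later times are set against the same DMSO lists, so effects of culture time and of exposure cannot be told apart.

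The BAF family of remodelling complexes moves nucleosomes with energy from ATP. GLTSCR1 and BRD9 belong to its GBAF form (also called ncBAF), which lacks the ARID subunits of the other forms, and SS18 is a subunit of both GBAF and canonical BAF. In synovial sarcoma the translocation joins SS18 to an SSX protein, and the resulting SS18::SSX carries BAF complexes to chromatin that bears Polycomb marks, often at developmental genes. Promoters of widely expressed genes, by contrast, are mostly CpG islands with an open stretch at the transcription start and a positioned nucleosome on each side.

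In DMSO the fusion-free gene-end regions had a median width of 524 bp (272 to 4733) and a median summit fold of 4.94 (2.24 to 30.7). The fold is the authors' enrichment of a peak's strongest summit over background in that library. It was used only to rank and describe regions within 1 list. Width and fold were lower than at gene-end regions with fusion (medians 862 bp and 5.90, n = 2430) and somewhat higher than at distal regions without fusion (424 bp and 4.76, n = 3489). The median distance to the nearest DMSO fusion region was 102 kb, and 340 of the regions (8.86%) lay within 1 kb of one. At the width limit, the widest region inside was the 4733 bp at CA14 and the only one outside was 6258 bp at ZMYND8, on chromosome 20, with a DMSO fold of 17.7.

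Of the 3838 regions, 3129 (81.5%) held or neared a gene start, 94 (2.45%) lay at a downstream end only, and for 615 (16.0%) the sequence table does not give the gene's strand. The promoter sequences below are from RefSeq (GRCh38.p14), read 5′ to 3′ on the gene's strand up to the base before the annotated start. They show the DNA before the starts at 2 regions that stayed in every later GLTSCR1 list (ECT2 and MOK), 2 that were in none (ELOVL1 and NUTM1) and 2 that were called at 12 h only (DNPH1 and MARCKSL1). The stretches of DNPH1 and MARCKSL1 reach upstream past the end of the region, and the other 4 lie inside it. ECT2 encodes a protein needed for cytokinesis, MOK a kinase of the MAP kinase superfamily and ELOVL1 an elongase of very long chain fatty acids. NUTM1 is a testis gene that shares its start region with NOP10, a component of small nucleolar ribonucleoproteins. DNPH1 encodes a nucleotide hydrolase and MARCKSL1 an actin regulator. Capitals mark matches to the letters of known promoter motifs, on either strand.
ECT2: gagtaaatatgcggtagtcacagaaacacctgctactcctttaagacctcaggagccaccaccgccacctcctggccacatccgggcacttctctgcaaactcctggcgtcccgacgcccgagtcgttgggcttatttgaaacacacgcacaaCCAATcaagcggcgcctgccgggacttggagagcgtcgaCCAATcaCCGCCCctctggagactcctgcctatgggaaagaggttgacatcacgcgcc
MOK: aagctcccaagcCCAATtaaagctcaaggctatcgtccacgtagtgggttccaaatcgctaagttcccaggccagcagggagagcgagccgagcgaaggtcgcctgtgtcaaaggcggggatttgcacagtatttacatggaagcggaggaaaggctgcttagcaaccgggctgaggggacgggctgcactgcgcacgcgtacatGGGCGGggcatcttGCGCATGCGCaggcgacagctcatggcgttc
ELOVL1: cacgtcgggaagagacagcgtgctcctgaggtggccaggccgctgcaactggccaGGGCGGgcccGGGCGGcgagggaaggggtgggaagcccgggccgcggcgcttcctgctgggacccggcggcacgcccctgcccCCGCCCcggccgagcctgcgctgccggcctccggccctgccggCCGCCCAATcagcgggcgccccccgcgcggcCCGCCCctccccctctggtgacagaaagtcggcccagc
NUTM1: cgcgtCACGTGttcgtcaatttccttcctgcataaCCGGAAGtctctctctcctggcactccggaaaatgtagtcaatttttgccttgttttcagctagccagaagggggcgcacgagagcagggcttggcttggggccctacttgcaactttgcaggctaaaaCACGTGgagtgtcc
DNPH1: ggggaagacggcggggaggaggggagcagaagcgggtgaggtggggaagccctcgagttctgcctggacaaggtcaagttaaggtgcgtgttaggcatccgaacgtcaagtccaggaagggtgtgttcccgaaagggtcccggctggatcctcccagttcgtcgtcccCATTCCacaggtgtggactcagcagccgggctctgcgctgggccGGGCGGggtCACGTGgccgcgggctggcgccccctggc
MARCKSL1: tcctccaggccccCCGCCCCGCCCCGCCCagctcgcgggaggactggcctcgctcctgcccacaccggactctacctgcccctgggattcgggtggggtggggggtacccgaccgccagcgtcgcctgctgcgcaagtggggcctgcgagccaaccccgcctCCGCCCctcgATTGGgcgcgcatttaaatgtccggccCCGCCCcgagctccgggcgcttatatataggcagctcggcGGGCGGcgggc

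These stretches are chr3:172750476-172750725 on the + strand (ECT2), chr14:102305165-102305414 on the - strand (MOK), chr1:43368012-43368261 on the - strand (ELOVL1), chr15:34343137-34343314 on the + strand (NUTM1, cut at 178 bases where NOP10 begins), chr6:43229482-43229731 on the - strand (DNPH1) and chr1:32336234-32336483 on the - strand (MARCKSL1). ECT2 holds 2 CCAAT boxes (NFY) and 1 match to GGGCGG, the core of SP and KLF sites. MOK holds a palindromic match to GCGCNTGCG, the NRF1 motif, read on both strands. NUTM1 holds 1 ETS motif (CCGGAAG) and 2 E-boxes (CACGTG), and MARCKSL1 holds 6 GGGCGG matches, some of them overlapping.

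The start of 1191 genes with a sequence lay inside a fusion-free gene-end region. Among the windows from 250 bases before to 50 after these starts, the median GC content was 64.7% against 62.7% over all 15842 promoters of the table. CpG dinucleotides were present at more than 0.6 of the number expected from base composition in 90.4% of them, against 65.7% of all promoters and 89.9% of the 909 promoters whose start lay in a gene-end region with fusion. The 2 kinds of GLTSCR1 gene end thus held CpG-rich starts in like proportion. They differed more in motif letters. ETS letters were found in 20.2% (95% interval 18.0 to 22.6) of fusion-free promoters, in 13.2% (11.1 to 15.6) of those with fusion and in 14.2% of all promoters. The YY1 letters AAGATGGCG were found in 5.63% (4.39 to 7.09), 2.86% (1.88 to 4.16) and 2.74%. The E-box CACGTG was found in 10.2% (8.50 to 12.0), 13.2% (11.1 to 15.6) and 8.88%. ETS and YY1 letters were thus more frequent where the fusion was absent, and a match is letters in a window, not evidence of a bound factor.

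The other motifs were as follows. GGGCGG was in 68.4% of fusion-free promoters, 73.7% of those with fusion and 58.5% of all, and CCAAT in 32.2%, 31.5% and 36.4%. The NRF1 letters were in 12.4% of fusion-free promoters and 10.1% of those with fusion. The CREB/ATF letters TGACGTCA were in 3.36%, 3.63% and 2.59%, and the ZNF143 letters ACTACAANT in 2.02%, 0.990% and 1.94%. The AP-1 letters TGANTCA were in 4.79%, 3.85% and 5.75%, and CATTCC, read by TEAD factors, in 11.4%, 11.1% and 11.7%. The TATA letters TATAAA were in 4.62% (3.50 to 5.97) of fusion-free promoters, 7.37% (5.76 to 9.27) of those with fusion and 9.63% of all. TATA letters were thus rarer at both kinds of GLTSCR1 start than at promoters in general.

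GLTSCR1 summits were most frequent on either side of the starts, with a dip at the start itself. Of the fusion-free regions, 2911 (75.8%) had their strongest DMSO summit within 1000 bp of a known start, and the positions formed 2 groups. The bin from 400 to 300 bp upstream held 298 summits and the bin from 200 to 300 bp downstream held 371, while the 100 bp just upstream of the start held 77. A gene could carry a separate region on each side: this was so for 274 genes, with median summit positions of -448 bp (upstream) and 285 bp, a median of 804 bp apart. SMARCA4, the gene of a catalytic BAF subunit, was one of them, with summits at -530 and 417 bp.

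**Figure D1:**
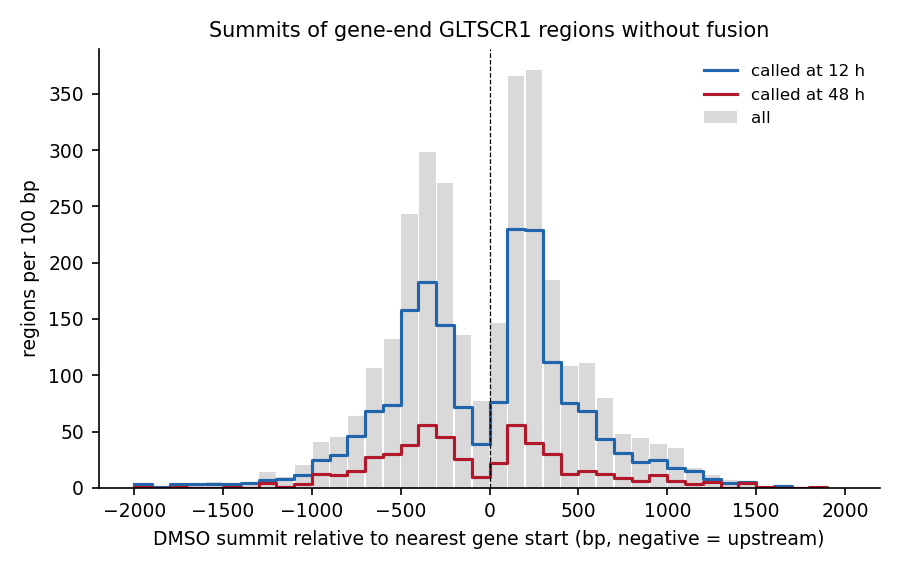
Strongest DMSO summits of fusion-free gene-end regions by distance from the nearest annotated start (x axis, bp; negative is upstream) as regions per 100 bp (y axis). Grey bars count all regions, the blue line those called by GLTSCR1 at 12 h and the red line those called at 48 h; the low bin just upstream of the start holds 77 regions.

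GLTSCR1 calls at these gene ends were about as frequent as elsewhere at 12 h and much less frequent from 24 h on. A region was called at a later time when a region of the later list overlapped it by at least 1 bp. At 12 h 2277 of 3838 regions were called (59.3%, 95% interval 57.8 to 60.9), where the share over all DMSO GLTSCR1 regions was 55.8%. At 24 h 1180 were called (30.7%, 29.3 to 32.2; all regions 47.6%). At 48 h 656 were called (17.1%, 15.9 to 18.3; all regions 43.2%), the lowest point. At 96 h the number was 1055 (27.5%, 26.1 to 28.9; all regions 48.6%). The regions were therefore slightly above the background at 12 h and far below it at the 3 times after. Gene ends with fusion were also called less often after 12 h: 64.2%, then 46.1% at 24 h, 44.6% at 48 h and 51.8% at 96 h. From 12 to 48 h, distal regions without fusion went from 46.5% to 34.1%, and those with fusion from 54.5% to 57.5%. A fall after 12 h was thus not confined to the fusion-free gene ends, where it was deepest. In every later list 353 were called (9.20%, against 26.7% of all regions), and in none 1267 (33.0%, against 26.0%).

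**Figure D2:**
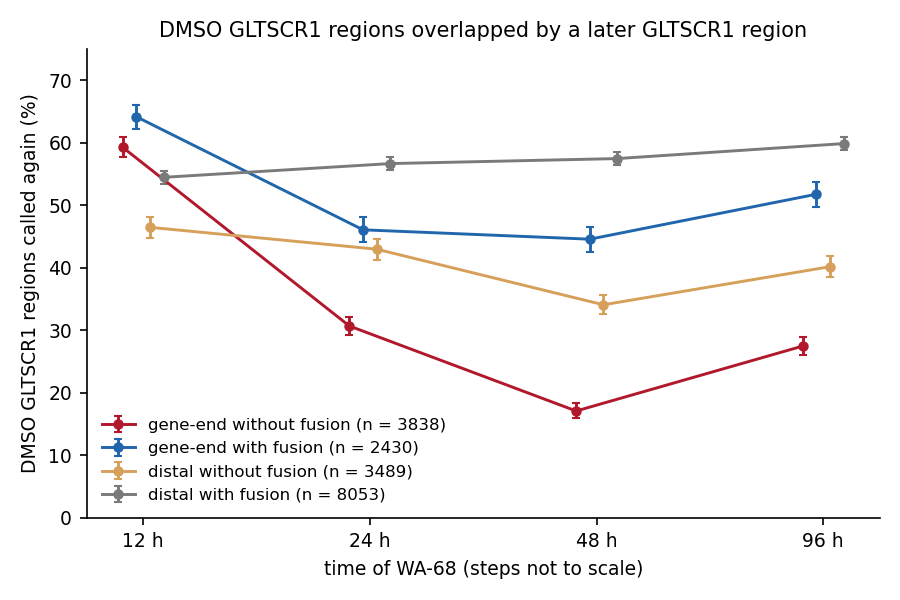
Share of DMSO GLTSCR1 regions overlapped by a GLTSCR1 region of each later list (y axis, %) against time of WA-68 (x axis), for 4 classes of regions up to 5 kb; bars are exact 95% intervals of counting error. Fusion-free gene ends (red) go from 59.3% at 12 h to 17.1% at 48 h and 27.5% at 96 h, below the other classes from 24 h on.

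The comparison with other classes was repeated among regions of like DMSO fold, since strong regions were called again more often. Relative to gene-end regions with fusion, the fusion-free ones were called more often at 12 h by 5.92 percentage points (3.36 to 8.48). The difference turned to -4.70 points by 24 h (-7.06 to -2.33) and reached -18.5 by 48 h (-20.8 to -16.2). After 96 h it was -14.0 (-16.5 to -11.6). Without the matching on fold the 12 h difference had the other sign (-4.83 points). Relative to distal regions without fusion the 12 h difference was 11.4 points (9.19 to 13.5). The 24 h value was -13.4, the 48 h value -18.1 (-20.0 to -16.2) and the 96 h value -14.0. The early excess and the later deficit were thus seen against both classes that share 1 feature with the regions. The difference from the 8053 distal regions with fusion was 4.22 points at 12 h and -40.9 at 48 h. At like fold, shares called at no later time did not separate the regions from gene ends with fusion (1.86 points, -0.639 to 4.36). Nor did they separate them from distal regions without fusion (0.143 points, -1.93 to 2.21). They were above those of distal regions with fusion by 12.6 points (10.9 to 14.2). Without matching, 33.0% of the regions and 23.1% of gene ends with fusion were called at no later time.

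Calls at single regions were also followed across the later lists. A missing call means below the caller's threshold, so a pattern of calls is not an order of binding events. Calls also appeared late: of regions not called at 12 h, 10.1% were called at 24 h. The pattern called at 12 h and never after was held by 876 regions (22.8%), against 5.92% of the other regions up to 5 kb. It was the most frequent pattern after that of no later call. Called at 12 and 24 h only were 319 (8.31% against 2.87%), and called at all 4 times were 353 (9.20% against 30.3%). Of the regions called at 12 h, 44.9% were called at 24 h, where the share was 63.3% at gene ends with fusion and 65.5% at distal regions without fusion. From 24 to 48 h 38.2% of called regions were called again, against 72.4% and 62.8%. From 48 to 96 h the share was 68.1%, against 83.2% and 76.9%. In all, 1561 of the fusion-free regions were without a call at 12 h, 2658 at 24 h and 3182 at 48 h.

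At some regions the call returned at 96 h. Of 3182 regions not called at 48 h, 608 (19.1%) were called at 96 h, near the 21.2% of distal regions without fusion and below the 26.5% of gene ends with fusion. Of 1107 regions called at 12 h and absent at 24 and 48 h, 231 (20.9%) were called again at 96 h. The list at 48 h was the shortest and narrowest of the GLTSCR1 lists (13677 regions and 8.55 Mb, against 15611 and 10.3 Mb at 96 h). Its part in this return was not tested beyond lists cut to equal length, which gave 20.9% called at 48 h and 29.1% at 96 h. Applying the same rule to each later time found 3560 fusion-free gene-end regions at 12 h (22.2% of that list), 1906 at 24 h (12.4%) and 957 at 48 h. Of these, 73.9%, 83.2% and 84.1% overlapped a DMSO GLTSCR1 region of any class, so most were not new GLTSCR1 positions. Fewer (54.7%, 55.3% and 50.7%) overlapped a fusion-free gene-end region of the DMSO list. The later sets were thus only partly the same fusion-free regions.

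**Figure D3:**
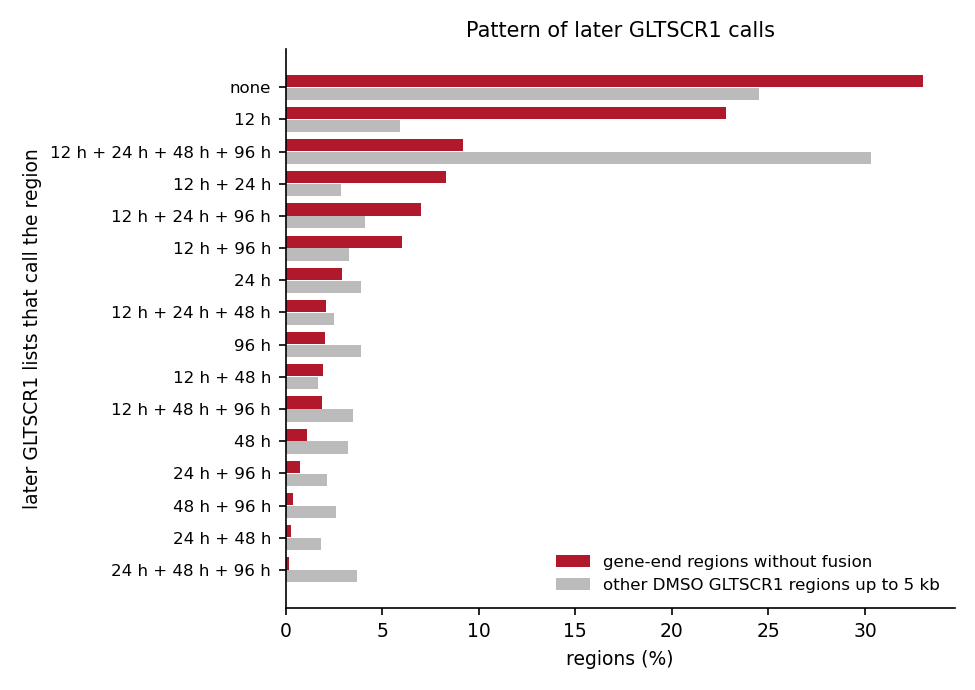
Share of regions (x axis, %) by the set of later GLTSCR1 lists that call them (y axis), for the 3838 fusion-free gene-end regions (red) and the other DMSO GLTSCR1 regions up to 5 kb (grey). Red exceeds grey for no call at any later time (33.0% against 24.5%) and for calls at 12 h only (22.8% against 5.92%). It is lower for calls at all 4 times (9.20% against 30.3%).

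The strongest and widest regions were called again more often, and most called regions were narrower than in DMSO. Among regions in the highest of 10 fold groups of the DMSO list (fold 8.59 to 30.7, n = 271), 90.4% were called at 12 h and 58.3% at 48 h. In the lowest group (2.24 to 3.44, n = 327) the shares were 52.3% and 10.1%, and in the third lowest (3.84 to 4.20, n = 413) they were 46.2% and 6.78%. Calls thus did not rise with fold among the weakest regions. Of the 960 widest regions 26.1% were called at every later time, and of the 960 narrowest 0.729%. A wide region is easier to overlap, but summits within 250 bp of each other gave the same order: 25.5% of the widest and 5.00% of the narrowest at 48 h. Among regions called at 48 h, the later region was narrower in 90.1%, and its median width was 0.487 of that in DMSO, against 0.904 at 12 h, 0.684 at 24 h and 0.642 at 96 h. At 48 h this ratio was 0.415 for gene ends with fusion and 0.810 for distal regions without fusion, in the same narrower list. Summits stayed within 250 bp in 71.4% to 73.2% at the 4 times.

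Calls differed between the 2 sides of the start after 12 h. Regions with the summit up to 1000 bp upstream (n = 1413) and downstream (n = 1498) had like median folds (5.03 and 4.96) and widths (522 and 527 bp). At 12 h 59.4% of the upstream and 60.9% of the downstream ones were called. At 24 h the shares were 36.2% and 26.1%, at 48 h 19.1% and 14.2%, and at 96 h 30.4% and 25.1%. At like fold and width the 12 h excess of upstream regions was -1.51 points (-4.82 to 1.80), and the 24 h excess was 10.2 points (7.18 to 13.2). The 48 h excess was 5.10 (2.63 to 7.56), and the 96 h excess 5.26 (2.28 to 8.23). The 274 genes with a region on each side showed the same within 1 promoter: only the upstream one was called at 24 h in 78 and only the downstream one in 26, while at 12 h the numbers were 57 and 55. At 48 h they were 36 and 13, and at 96 h 57 and 33. Over the whole lists, 45.3% of GLTSCR1 summits within 500 bp of a start were upstream in DMSO and 41.7% at 12 h. The shares were 54.9% at 24 h, 56.8% at 48 h and 50.9% at 96 h. The lists at 24, 48 and 96 h as a whole thus leaned the same way.

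Calls also varied with the position at the gene. The 94 regions at a downstream end only were called in 39.4% at 12 h and 25.5% at 48 h, against 60.4% and 16.7% at starts. At like fold, starts exceeded downstream ends by 22.4 points at 12 h (13.3 to 31.6) and were below them at 48 h by -8.19 (-16.3 to -0.0754). Divergent gene pairs with starts within 1 kb of each other (285 regions) differed from other starts by 2.57 points at 12 h (-3.07 to 8.20) and -0.673 at 48 h (-4.80 to 3.46), which counting error spans. Regions that contained the gene end itself (1435, 37.4%) were called in 70.6% at 12 h and 24.5% at 48 h, while the 413 lying 500 to 1000 bp from it were called in 44.3% and 13.8%. Distal regions just outside the window (1000 to 1500 bp, n = 166) had 44.6% and 23.5%.

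Promoter letters were also counted by later calls. Among promoters whose start lay in a region called at every later time (n = 187), called at no later time (262) and called at 12 h only (259), ETS letters were in 17.1%, 21.8% and 20.1%. YY1 letters were in 3.74% (1.52 to 7.56), 6.49% (3.82 to 10.2) and 7.72% (4.78 to 11.7). The TATA letters were in 7.49% (4.15 to 12.2), 2.29% (0.845 to 4.92) and 2.32% (0.855 to 4.97). TATA-bearing starts were thus more frequent among lasting regions, from 14, 6 and 6 promoters and with intervals that overlap. By calls at 12 h alone, they were in 5.61% (4.17 to 7.37) of called and 2.08% (0.842 to 4.25) of other promoters. GGGCGG was in 62.6% (55.2 to 69.5) of promoters called at every time, 71.0% (65.1 to 76.4) of those called at none and 72.6% (66.7 to 77.9) of those called at 12 h only.

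The strongest regions called at all times were led by ECT2 and MOK. ECT2 (chr3:172749956-172751235) had a fold of 30.7 in DMSO and 23.0, 24.2, 15.9 and 30.5 at 12, 24, 48 and 96 h, each in its own list. MOK (chr14:102304621-102305931) had 30.0 in DMSO, then 8.10, 6.72, 4.95 and 17.2. HSPA8, which encodes the constitutive HSC70 chaperone, had 24.9, then 21.1, 17.4, 15.9 and 17.7. The region shared by PPOX, a heme synthesis enzyme gene, and USP21, a deubiquitinase gene, had 20.7, then 32.2, 10.6, 21.4 and 39.8. PPP1R15A, whose product directs dephosphorylation of a translation factor after stress, had 20.3, then 23.0, 17.6, 22.9 and 25.5. Folds of different lists are not comparable, so the later values show that a region was called, not a rise or fall in binding. CA14, a carbonic anhydrase gene (22.8), and the transcription factor gene KLF2 (21.0) were also among them. Of these lasting regions named here, that of KLF2 alone overlapped the fusion later, with fusion folds of 3.55 at 12 h and 5.45 at 48 h.

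The strongest regions called at no later time had lower DMSO folds. The shared region of SSRP1, a subunit of the histone chaperone FACT, and TNKS1BP1, a tankyrase-binding protein, had 10.6, and ELOVL1 (chr1:43367557-43368709) had 9.52. HLTF, a SWI/SNF-related translocase of replication forks, had 9.25, and the NOP10 and NUTM1 region had 9.23. TXN2, the mitochondrial thioredoxin gene, had 9.12. SPSB1, a ubiquitin ligase adaptor gene, ZNF148, a zinc finger transcription factor gene, and DCTD, the dCMP deaminase gene, had 8.95 each. All 8 were within the strongest 8.68% of the DMSO list, and only SPSB1 overlapped the fusion later (fold 4.30 at 24 h).

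The strongest regions called at 12 h and never after began with DNPH1, at chr6:43228764-43229533 (15.3 in DMSO, 7.46 at 12 h). USP22, the deubiquitinase of the SAGA coactivator, had 11.2 and 5.28, and SFN, the stratifin gene, 11.2 and 5.41. MARCKSL1 had 10.9 and 6.18, UBE4B, a ubiquitin chain ligase gene, 10.8 and 4.57, and RRAGD, a Rag GTPase gene of the mTORC1 pathway, 10.6 and 3.78. SFN lay at a downstream end and 4 of the others at a start, while the gene end at RRAGD is not known, since the table gives no strand for it. The return at 96 h was led by ZNF146, a zinc finger gene with its region at chr19:36214627-36216034 (13.1 in DMSO, 13.7 at 12 h, 5.61 at 96 h), EIF4G1, the scaffold of the cap-binding complex (12.3, 9.21 and 5.14), and the Polycomb-associated gene SCML2 (11.2, 8.47 and 5.62). FAM47E-STBD1, ZCCHC3 and ZFTA followed at DMSO folds of 10.1, 9.79 and 9.79.

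The opposite course, absent at 12 h and called at 24, 48 and 96 h, was held by only 7 regions (0.182%, against 3.69% of other regions). DCT, a melanin synthesis gene, had 6.88 in DMSO and 6.75, 6.90 and 3.08 at the 3 later times. CXXC4, a CpG-binding Wnt antagonist gene, had 6.78, then 6.75, 4.28 and 5.94. RYBP, a subunit of variant Polycomb repressive complexes, had 5.77, then 3.96, 4.84 and 5.74. MYOF, ESD and GSTT2B had DMSO folds of 5.69, 5.25 and 3.69. DCT and RYBP lay 0.300 and 0.254 kb from a DMSO fusion region.

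Housekeeping gene families often had a fusion-free region, as they often had GLTSCR1 at all. Such a region lay at an end of 4051 of 20037 protein-coding genes (20.2%), a figure the rule itself fixes through the DMSO lists. Of cytosolic ribosomal protein genes 40 of 81 had one (49.4%), of DNA replication and repair genes 37 of 86 (43.0%), of splicing factor genes 38 of 90 (42.2%) and of mitochondrial ribosomal protein genes 32 of 77 (41.6%). Chaperones stood at 31 of 78, respiratory chain subunits at 29 of 77, and RNA polymerase, Mediator and general transcription factor genes at 42 of 113. Translation initiation factors followed at 20 of 56, ubiquitin enzymes at 31 of 90, aminoacyl-tRNA synthetases at 12 of 37 and proteasome subunits at 11 of 39. Vesicle traffic genes (39 of 150), autophagy and V-ATPase genes (10 of 40) and ZNF genes (119 of 509) were nearer the share of all genes. Developmental transcription factor genes, which had a DMSO fusion region at an end in 132 of 183, had a fusion-free region in 14 (7.65%), collagen genes in 5 of 44, and olfactory receptor genes in 0 of 392. The rule fixes these list shares too, since GLTSCR1 regions that overlap the DMSO fusion are left out.

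Any GLTSCR1 region at an end was found in DMSO for 76.5% of cytosolic ribosomal protein genes and 31.1% of all genes, and a fusion region for 43.2% and 19.3%. Among genes with GLTSCR1 the share with a fusion-free region was 64.5% for cytosolic ribosomal protein genes and 65.0% for all genes. It was 78.0% for mitochondrial ribosomal protein genes, 77.1% for replication and repair genes, 71.7% for splicing factor genes and 13.5% for developmental transcription factor genes. These shares also follow from the DMSO lists that the rule used.

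The later calls of these genes were read against all 4051 genes. A gene counted as called when any of its fusion-free regions was called, which held for 62.6%, 32.6%, 19.0% and 30.3% of genes in the order of the 4 times. For 10.6% of genes 1 region was called in all 4 lists, and for 30.4% no region was called in any. Cytosolic ribosomal protein genes were above this at 12 and 24 h: 32 of 40 (80.0%) and 23 (57.5%), then 9 (22.5%) at 48 h and 15 (37.5%) at 96 h. RPS23 (10.4 in DMSO) had folds of 5.36 and 7.99 at 12 and 24 h and no call after. RPL10 (9.79) had 13.2, 5.67 and 5.63 and no call at 96 h, and RPL21 (10.1) had 9.41, no call at 24 h, then 4.26 and 5.56. Splicing factor genes were called in 32 of 38 at 12 h (84.2%), the highest share of the lists, and in 6 (15.8%) at 48 h. HNRNPF (16.3 in DMSO) had 23.8, 7.35, 9.59 and 10.8, and HNRNPA3 (10.8) was called at all 4 times too. SNRPA, a U1 snRNP protein gene that shares its region with ACTMAP (11.4), was called at 12, 48 and 96 h.

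Replication and repair genes had the lowest share at 48 h of the lists with at least 10 such genes. They were called in 22 of 37 at 12 h (59.5%) and 14 at 24 h (37.8%). The number fell to 2 by 48 h (5.41%) and was 9 in the 96 h list (24.3%). POLE3, a DNA polymerase epsilon subunit gene (chr9:113410365-113411724; 14.3 in DMSO), had 8.04 at 12 h, 4.00 at 24 h, no call at 48 h and 5.38 at 96 h. MCM5, a subunit gene of the replicative helicase (13.1), had 8.24, 7.46, no call and 8.99. FANCE, whose region is shared with RPL10A (8.82), was called at 24 h only, at 4.29. POLE3 and MCM5 thus showed the dip at 48 h with a return at 96 h. Mitochondrial ribosomal protein genes were called in 25 of 32 at 12 h (78.1%) and 5 at 48 h (15.6%), and MRPL48 (10.9) and MRPS33 (9.32) stayed called at all 4 times. Chaperone genes had 17 of 31 at 12 h (54.8%), below all genes, and 14 at 96 h (45.2%), above them. Among lists with few such genes, proteasome subunits had 1 of 11 at 48 h, and developmental transcription factors 5 of 14 at 48 h, FOXJ1 (9.22, in a region shared with RNF157) and FOXO6 (7.67) among those called throughout. With 1 library per time and lists of this size, these shares describe the libraries, and no list was tested.

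**Figure D4:**
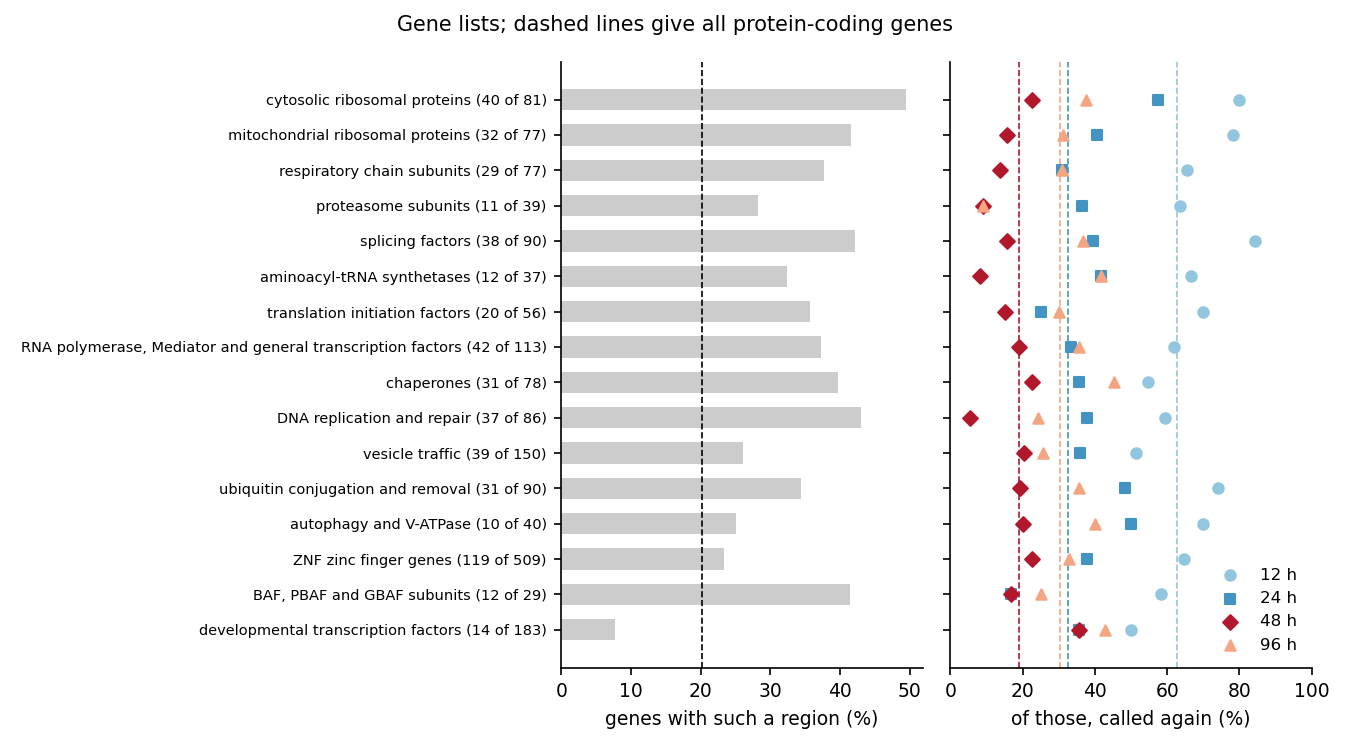
Gene lists with at least 10 genes at a fusion-free region: left, share of the list with such a region (x axis, %; the counts stand beside each name); right, share of those genes called again by GLTSCR1 at 12, 24, 48 and 96 h (x axis, %). Dashed lines give all protein-coding genes (20.2% on the left; 62.6%, 32.6%, 19.0% and 30.3% on the right); cytosolic ribosomal proteins reach 57.5% at 24 h and replication and repair genes drop to 5.41% at 48 h.

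Genes of the remodeller itself were among those with such a region. Of 29 BAF, PBAF and GBAF subunit genes 12 had fusion-free regions (41.4%, against 20.2% of all genes), 16 regions in all with a median fold of 4.36. GLTSCR1 lay at an end of 20 of the 29 in DMSO. Among subunit genes with GLTSCR1 the share with a fusion-free region was 60.0%, near the 65.0% of all genes with GLTSCR1. ARID1B, the gene of a canonical BAF subunit, had the strongest (11.3, chr6:156776729-156778901) and was the one called throughout, at 15.1, 5.80, 4.02 and 5.31. BCL7A (8.82) was called at 12 and 24 h, DPF1 (7.61) at 12 and 48 h, and the stronger region of the core subunit gene SMARCC1 at 12 and 96 h. The weaker region of SMARCC1 (4.92) was called at 12 h only, and that of BCL7A (4.33) at no later time. SMARCA4 regions (5.65 and 4.24) and BCL7B (3.55) were called at 12 h only, as was SMARCC2 (3.77). BCL7C (4.38) was called at 96 h only. SMARCB1 (4.18), SMARCA2 (3.79), PBRM1 (3.09) and SS18L1 (4.34 and 3.79) were called at no later time. Over the list 7 of 12 genes were called at 12 h (58.3%), and 2 were called in each of the 24 h and 48 h lists (16.7%). The 96 h list called 3. The 24 h share was the furthest below that of all genes.

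The later fusion lists overlapped some of these gene ends. The rule had chosen regions without a DMSO fusion call, so their overlap with the fusion could only rise. Calls also went the other way. Of gene-end regions with DMSO fusion, the fusion lists at 12, 24 and 48 h overlapped 61.6%, 58.3% and 64.9%. Among the fusion-free regions, the 12 h fusion list overlapped 434 (11.3%, 10.3 to 12.4) and the 24 h list 292 (7.61%, 6.79 to 8.49). The 48 h list overlapped 472 (12.3%, 11.3 to 13.4). Over all DMSO GLTSCR1 regions without DMSO fusion the shares were 13.9%, 9.35% and 13.5%, so the gene ends were slightly below that background. At least 1 later time was reached by 907 regions (23.6%), and all 3 by 52 (1.35%, against 2.36%). The fusion list at 12 h was longer than that in DMSO (28619 against 24953 regions), and with lists cut to equal length the 48 h share was 11.9%; the part of list length at 12 and 24 h was not tested. Regions within 1 kb of a DMSO fusion region were overlapped most often (23.5% at 12 h and 23.5% at 48 h), and those over 100 kb away less often (8.93% and 9.71%).

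The fusion was called more often where GLTSCR1 was called. At 48 h the fusion overlapped 190 of the 656 regions still called by GLTSCR1 (29.0%, 25.5 to 32.6) and 282 of the 3182 no longer called (8.86%, 7.90 to 9.90). At 12 h the shares were 14.3% and 6.98%, and at 24 h 11.6% and 5.83%. Among regions of like DMSO fold and width the 12 h difference was 6.40 points (3.54 to 9.25). The 24 h difference was 3.51 (0.640 to 6.38) and the 48 h difference 18.3 (14.4 to 22.2). At distal regions without fusion it was 9.63, 5.45 and 11.7 points, the same direction at each time. At gene ends with fusion the 12 h difference was -1.81 points (-9.74 to 6.12), and those at 24 and 48 h were 15.7 and 29.3.

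**Figure D5:**
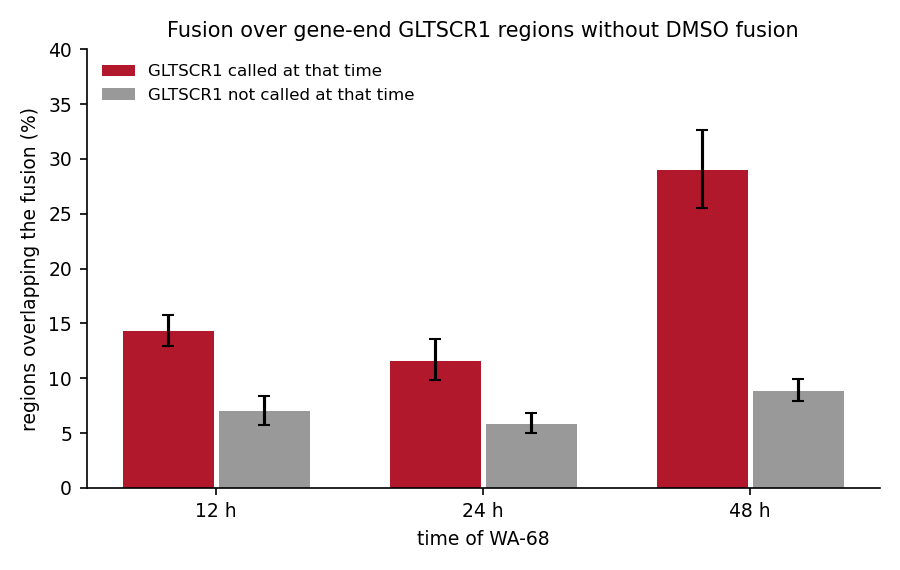
Share of fusion-free gene-end regions overlapped by the fusion (y axis, %) at 12, 24 and 48 h of WA-68 (x axis), split by whether GLTSCR1 was called there at the same time; bars are exact 95% intervals of counting error. At 48 h the shares are 29.0% with GLTSCR1 and 8.86% without.

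The 6 strongest regions with the fusion at all 3 later times included those at HNRNPF and HNRNPK, both in the splicing factor list. The others lay at genes of unlike functions. HNRNPF, which encodes an RNA-binding protein (chr10:43407171-43409677) had fusion folds of 4.38, 4.78 and 4.16 at 12, 24 and 48 h, and the region shared by HNRNPK and the genome stability gene RMI1 had 4.18, 5.79 and 3.39. POGZ, which encodes a zinc finger chromatin protein, had 2.75, 4.79 and 4.53, and TUB, the tubby gene, 2.84, 5.38 and 4.71. MARCKSL1, whose promoter is printed above, had 3.84, 3.75 and 3.67, although GLTSCR1 was called there at 12 h only. LRRC8B, a subunit gene of volume-regulated anion channels, had 4.93, 4.13 and 4.70. HNRNPF, POGZ and HNRNPK kept GLTSCR1 at every time, TUB missed 24 h, and LRRC8B was called at 12 and 96 h.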

How the data were processed

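Peak lists of 5 GLTSCR1 and 4 fusion ChIP-seq libraries were used; the 5 input libraries were not analysed here. Positions are on GRCh38, per the submitters' processing notes, which name MACS2, BWA, Picard, SAMtools, deepTools, cutadapt, Trim Galore, FastQC and bcl2fastq. Tool versions were not given in the sources used here. Each peak's fold is the authors' deposited linear ratio of summit enrichment, and the deposited −log10 p and −log10 q values are those of their peak caller. No deposited peak had a −log10 q under 3.00. Read depth is unknown from peak lists, and a missing call means below the caller's threshold.

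Entries with the same coordinates were joined into 1 region that carries its strongest summit, and only the autosomes, X and Y were used. A region was called when it was overlapped by at least 1 bp. Gene spans were taken from RefSeq (GRCh38.p14, 20037 protein-coding genes); promoter sequences and strands were known for 15842 of them. Shares carry exact Clopper-Pearson 95% intervals, and classes were compared within 10 groups of DMSO fold, averaged over the regions described. Neighbouring regions are not independent. Overlap and matching code was tested on simulated data.

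The regions, the gene lists (18, by symbol pattern) and the motifs (11) were chosen with earlier results of these data known, and the comparison of upstream with downstream summits was added after the summit positions had been seen. Named genes are those with the highest DMSO fold in each pattern of later calls or list, and every BAF subunit gene; a gene that this rule names is not reported here. Alternatives were other overlap rules, a stricter −log10 q, lists of equal length, other gene windows, no width limit, a 1 kb distance from the fusion, lists without 12 h, and other matching. Python 3.11.15, pandas 2.3.3, NumPy 2.4.6, SciPy 1.17.1 and matplotlib 3.10.9 were used.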

Additional observations from a re-analysis of the deposited data

How the results depend on the processing

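Of 81 values recomputed under the alternatives, 49 stayed within the counting interval of the value reported, 31 moved out of it and 1 changed sign. When the overlap had to reach 50% of the shorter region the shares were 54.5% at 12 h, 28.6% at 24 h and 25.9% at 96 h, 37.6% were called at no later time and 10.1% overlapped the fusion at 48 h. With strongest summits within 250 bp they were 43.8%, 22.5%, 12.9% and 20.6% at the 4 times, 4.43% at every time, 43.9% at none and 6.57% for the fusion. The differences were then 10.7 points at 12 h and -8.50 at 48 h from gene ends with fusion, and 4.80 at 12 h from distal regions without fusion. With −log10 q of at least 5 the share was 29.2% at 24 h and the fusion share 11.1%. Lists of equal length gave 61.6%, 32.8%, 20.9% and 29.1%, with 10.8% at every time and 29.8% at none. Windows of 500 bp gave 61.1% at 12 h and 31.4% at no time, and windows of 3 kb 57.6% at 12 h. Without regions within 1 kb of a fusion region, 11.2% overlapped the fusion at 48 h. Leaving out the 12 h list, 55.8% were called at no later time. Matching on fold and width moved the differences from gene ends with fusion to 10.6 points at 12 h and -12.6 at 48 h, and no matching to -4.83 and -27.5. The order of the 4 times, highest at 12 h and lowest at 48 h, held under each of the 9 rules that gave all 4 shares. No paired analysis was possible because each group holds 1 library. Unknown depth limits all calls, and variation between cultures is not in the intervals.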
